A study of Arabidopsis thaliana with 18 samples.

Results

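LOX2 (AT3G45140), VSP2 (AT5G24770) and TAT3 (AT2G24850) are genes of the jasmonate pathway of Arabidopsis thaliana, and their transcript levels are described here in whole seedlings around dawn. They are 3 of the 11437 genes in the table and were selected by locus with earlier results of these libraries known, in which their level at dawn and their spread between libraries already stood out. Those levels are therefore given as a description, without a test.

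The seedlings were ecotype Col-0, 14 days old, grown on 1/2MS medium in days of 12 h light and 12 h dark, and 18 libraries were made in 6 groups of 3. Zeitgeber time (ZT) counts the hours from lights on. One group was untreated and collected at ZT 0. The other 5 groups were collected at ZT 2 on 1/2MS medium with 1 addition each. The solvent control held 0.1% DMSO. The chemicals were Tyrphostin AG879 (TYR) at 2 µM, DPI at 10 µM, AEG3482 (AEG) at 12.5 µM and pentamidine isethionate (PI) at 25 µM. The short names PI, AEG and TYR come from the titles and were assigned to these chemicals by spelling, and the name DPI stands as in the labels. The title of the series calls the chemicals modifiers of sugar signalling, and DMSO is the solvent control. Whether the media with a chemical also held DMSO is not given in the sources used here. The labels name no mutation or transgene in any group.

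Jasmonates are hormones made from linolenic acid of chloroplast membranes. They are known for the response of leaves to wounding and chewing insects and for flower development. The conjugate of jasmonic acid with isoleucine brings the receptor COI1 and the JAZ repressors together, the repressors are broken down, and MYC transcription factors such as MYC2 then act on their targets. LOX2 encodes a chloroplast 13-lipoxygenase that adds oxygen to linolenic acid at the start of jasmonate synthesis. VSP2 encodes a vegetative storage protein with acid phosphatase activity and is a widely used jasmonate marker. TAT3 encodes a tyrosine aminotransferase whose transcript is known to respond to jasmonate.

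The sequence before each gene is shown because the transcripts of these genes varied together between libraries, as described further on. Each sequence covers the 250 bases before the annotated gene start in NCBI RefSeq (TAIR10.1), read 5′ to 3′ on the strand of the gene, with matches to a searched motif in capitals.
LOX2: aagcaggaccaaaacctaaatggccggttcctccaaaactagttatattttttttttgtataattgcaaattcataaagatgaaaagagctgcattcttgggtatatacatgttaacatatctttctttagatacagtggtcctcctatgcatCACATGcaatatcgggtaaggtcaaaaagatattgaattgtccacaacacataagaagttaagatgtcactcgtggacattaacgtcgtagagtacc
VSP2: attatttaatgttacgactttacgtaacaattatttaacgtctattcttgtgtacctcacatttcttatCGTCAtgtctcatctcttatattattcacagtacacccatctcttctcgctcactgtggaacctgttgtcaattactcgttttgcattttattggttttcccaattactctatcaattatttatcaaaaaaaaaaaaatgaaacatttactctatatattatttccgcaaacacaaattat
TAT3: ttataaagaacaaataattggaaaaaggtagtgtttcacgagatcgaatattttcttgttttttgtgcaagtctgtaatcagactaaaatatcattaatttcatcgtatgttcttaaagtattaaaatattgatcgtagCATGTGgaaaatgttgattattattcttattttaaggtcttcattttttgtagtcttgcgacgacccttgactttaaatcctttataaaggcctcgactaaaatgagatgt
The LOX2 sequence lies at chr3:16524995-16525244 on the plus strand, before a gene of 7 exons. The VSP2 sequence lies at chr5:8502225-8502474 on the minus strand, before a gene of 2 exons. The TAT3 sequence lies at chr2:10585217-10585466 on the minus strand, before a gene of 7 exons.

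Motifs were searched on both strands, and no matches overlapped. The G-box letters CACGTG, which MYC2 is known to bind, were in none of these 3 windows, in 2 of 35 windows of other jasmonate genes and in 6.49% of 27443 such windows over the genome. The G-box variant CACATG was present in LOX2, 97 bases before the gene start, and in TAT3, 111 bases before it on the opposite strand (CATGTG). This variant was in 11.1% of all windows and in 5 of 35 windows of other jasmonate genes. The letters TGACG, known from sites of TGA factors, were present in VSP2 on the opposite strand (CGTCA), 181 bases before the gene start. They were in 18.6% of all windows and in 4 of 35 windows of other jasmonate genes. These matches describe the letters only.

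The 18 libraries held between 3156987 and 3249696 estimated counts over the listed genes, so that 3 counts corresponded to between 0.889 and 1.00 CPM (counts scaled to a common library size with TMM factors). No pair of libraries within a group agreed within sampling noise. The only leaf marker in the table, CA1 for a carbonic anhydrase, lay between 4614 and 7891 CPM, and the 5 root markers in the table summed to between 1489 and 3637 CPM. The summed root level was 2575 to 3637 CPM in untreated libraries and 2147 to 2881 CPM with DMSO. It was 1489 to 2882 CPM on TYR medium, 1882 to 3126 CPM on AEG, 2002 to 2847 CPM on DPI and 2657 to 2937 CPM on PI. Its largest part was PYK10, and the other root markers moved differently. RCI3, a peroxidase gene, was called higher at dawn by 0.81 (edgeR, adjusted p = 0.0361) and against untreated with PI by 0.78 (adjusted p = 0.0434). IRT1, an iron transporter gene, was called lower against untreated with DPI and AEG (edgeR, adjusted p = 0.0315 and 0.0165). It had 1.19 to 56.4 CPM in untreated libraries. TIP2;3, an aquaporin gene, had 2 to 21 counts in untreated libraries and 0 in every AEG library (edgeR, adjusted p = 0.00925). PRP3 had at most 3 counts in any library. The part of the root share in the results below was not tested. The flower and seed markers in the table, SEP3 and CRA1, summed to at most 4.14 CPM, and CRA1 was at or near 0. Libraries at ZT 2 stood apart in FSD1, the iron superoxide dismutase gene. It had 960.8 to 1675 CPM in 1 library of each medium, replicate 3 for TYR and replicate 1 for the other 4, and at most 4.46 CPM in the other 10, against 1694 to 1749 CPM in untreated libraries.

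On the deposited FPKM scale, which is per length, LOX2 was the most abundant of these transcripts in every library. LOX2 had 131, 85.2 and 106 CPM in the untreated libraries, replicates 1 to 3. With DMSO it had 1058, 7397 and 2370 CPM. The DMSO libraries were all above the untreated ones, but replicate 2 was 6.99 times replicate 1. With DPI it had 7986, 5344 and 3244 CPM. With PI it had 3400, 2839 and 3552 CPM. The PI libraries lay close together and those with DPI did not. With AEG it had 7241, 6673 and 2337 CPM. With TYR it had 2208, 1080 and 3162 CPM. The lowest ZT 2 library, DMSO replicate 1, was 8.09 times the highest untreated one. By FPKM, LOX2 moved from rank 2461 to 3489 in the untreated libraries to rank 27 to 303 at ZT 2. In DPI replicate 1 it took 0.82% of all counts.

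VSP2 was close to the count floor at ZT 0. The untreated libraries had 10, 7 and 11 counts, or 3.08, 2.12 and 3.26 CPM. With DMSO it had 34.7, 492 and 175 CPM. Replicate 2 was again the highest and replicate 1 the lowest, 14.2 times apart. With DPI it had 607, 429 and 189 CPM. With PI it had 172, 112 and 155 CPM. All of the DPI libraries were above all of the PI libraries, a difference between chemicals that was not tested. With AEG it had 473, 486 and 97.6 CPM. With TYR it had 139, 50.6 and 159 CPM. The lowest ZT 2 library was 10.7 times the highest untreated one. On the FPKM scale VSP2 stood at 0.84 to 1.33 in the untreated libraries and at 13.4 to 241 at ZT 2. Of the 3 genes, VSP2 is the one with a close relative next to it. Its transcript and that of VSP1 (AT5G24780) were 88.7% identical over 1283 aligned bases in RefSeq, and 5365 bases lie between the genes. No stretch of 150 bases, the read length, of VSP2, LOX2 or TAT3 was in the longest transcript of another protein-coding gene. Shorter transcripts and non-coding genes were not searched. Of the 50-base stretches of VSP2, 0.343% were also in VSP1. No annotated gene overlapped any of the 3, and none of their estimated counts was fractional.

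TAT3 was at the floor of detection at ZT 0. The untreated libraries had 0, 0 and 1 counts. With DMSO it had 19, 513 and 118 counts, or 5.95, 163.5 and 35.5 CPM. The DMSO libraries differed 27.5 times between the lowest and the highest. With DPI it had 174, 165 and 26.6 CPM. With PI it had 95.9, 28.8 and 104 CPM. Both media again held a library well under the others. With AEG it had 187, 176.5 and 31.0 CPM. With TYR it had 3.57, 4.37 and 98.9 CPM, from 12, 14 and 313 counts. The lowest TYR libraries were the lowest of all ZT 2 libraries, and they still exceeded each untreated library. On the FPKM scale TAT3 stood at 0.07 or less in the untreated libraries and at 0.83 to 41.5 at ZT 2, below VSP2 in every ZT 2 library.

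**Figure D1:**
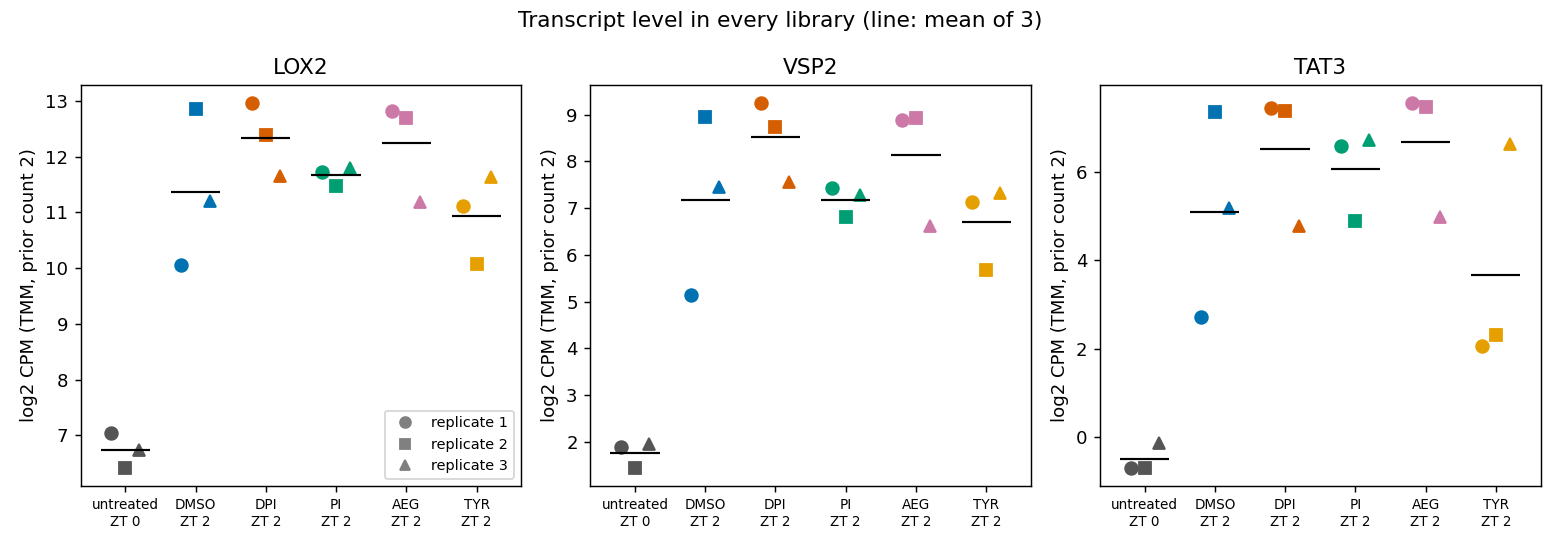
Level of LOX2, VSP2 and TAT3 in each of the 18 libraries, as log2 CPM with a prior count of 2 (vertical axis, a different range for each gene), by group (horizontal axis). Symbols are replicates and lines are means of 3 libraries. All 15 ZT 2 libraries lie above the 3 untreated libraries for each gene, and the media overlap.

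The first comparison set the DMSO group against the untreated group and asked what changed over the first hours of light on new medium. Medium, light, time and any handling of the seedlings cannot be told apart in it. All 3 genes were higher with DMSO. LOX2 averaged 107 ± 22.8 CPM untreated and 3608 ± 3346 CPM with DMSO (SD, n = 3). VSP2 averaged 2.82 ± 0.616 and 234 ± 234 CPM (SD, n = 3). The fitted log2 fold change was 5.07 (SE 0.61) for LOX2 and 6.36 (SE 0.94) for VSP2. The large SDs reflect a high DMSO replicate 2 and a low replicate 1. Without replicate 2 the log2 fold changes were 4.001 for LOX2 and 5.21 for VSP2. Leaving out each library in turn gave values up to 5.508 for LOX2 and 6.87 for VSP2. TAT3 had 650 counts in the DMSO libraries together and 1 in the untreated libraries together. Scaled for library size this was a ratio of 668, with an exact 95% interval of 119.5 to 26430 that covers counting error only. DMSO replicate 2 held 513 of the 650 counts, and without it the ratio was 209 (36.8 to 8299). The untreated count is a single one, in replicate 3. Seedlings are mixed tissue, so more cells with a transcript and more transcript per cell cannot be told apart.

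In the same comparison edgeR's quasi-likelihood test called 3204 of 9006 genes at a Benjamini-Hochberg adjusted p under 0.05, which is 35.6%. Of all genes tested, 19.6% were called higher and 16.0% lower. The 3 DMSO libraries all lay above the 3 untreated libraries for 25.1% of genes. All 15 ZT 2 libraries lay above the untreated ones for 16.0%. For 2.66% of genes every ZT 2 library was at least 2-fold above the highest untreated library. LOX2, VSP2 and TAT3 meet each of the last 3 criteria, and because they were selected on such values nothing is read from that.

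Each chemical medium was also set against the same 3 untreated libraries, so these values share their control. LOX2 was higher by 5.68 (DPI), 5.66 (AEG), 4.93 (PI) and 4.32 (TYR) on the log2 scale. VSP2 was higher by 7.16, 6.95, 5.68 and 5.35 in the same order. TAT3 had 1203, 1229, 710 and 339 counts per 3 libraries, against 1 in the untreated libraries together. Its smallest scaled ratio was 346 with TYR, with an exact 95% interval of 61.7 to 13710. TYR replicate 3 held 313 of those 339 counts, and without it the ratio was 39.3 (6.46 to 1613). Both intervals cover counting error only. TYR gave the lowest value of the 4 chemicals for each gene. The background of genes called was 37.4% for TYR, 38.0% for PI, 40.0% for AEG and 40.1% for DPI.

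Each chemical was then compared with DMSO at the same time, to ask whether it changed the level reached at ZT 2. No difference was called for LOX2, VSP2 or TAT3 with any chemical. The log2 fold change of LOX2 was 0.61 with DPI (95% interval -0.46 to 1.69; edgeR, adjusted p = 0.990). It had -0.14 with PI (-1.22 to 0.93; edgeR, adjusted p = 0.999), 0.59 with AEG (-0.49 to 1.66; edgeR, adjusted p = 0.9995) and -0.75 with TYR (-1.83 to 0.33; edgeR, adjusted p = 0.997). VSP2 had 0.80 with DPI (-0.52 to 2.13), 0.59 with AEG (-0.73 to 1.91), -0.68 with PI (-2.02 to 0.66) and -1.01 with TYR (-2.36 to 0.34), with the same adjusted p per chemical. The TAT3 intervals were wider. TAT3 had 0.95 with AEG (-1.01 to 2.91), 0.84 with DPI (-1.12 to 2.80), 0.16 with PI (-1.82 to 2.15) and -0.94 with TYR (-3.02 to 1.13), again with the same adjusted p. Each interval includes 0 and also changes of over 2-fold in at least 1 direction, so such changes are not excluded. The genes were also selected with their large spread between libraries known. Such spread widens the intervals and makes a call less likely, so the lack of a call carries little weight. Over all genes, 0% were called for each chemical by edgeR. At an unadjusted p under 0.05 stood 351 genes for TYR, 323 for DPI, 302 for AEG and 223 for PI. DESeq2 called 1 gene with AEG and 0 with the other 3 chemicals.

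**Figure D2:**
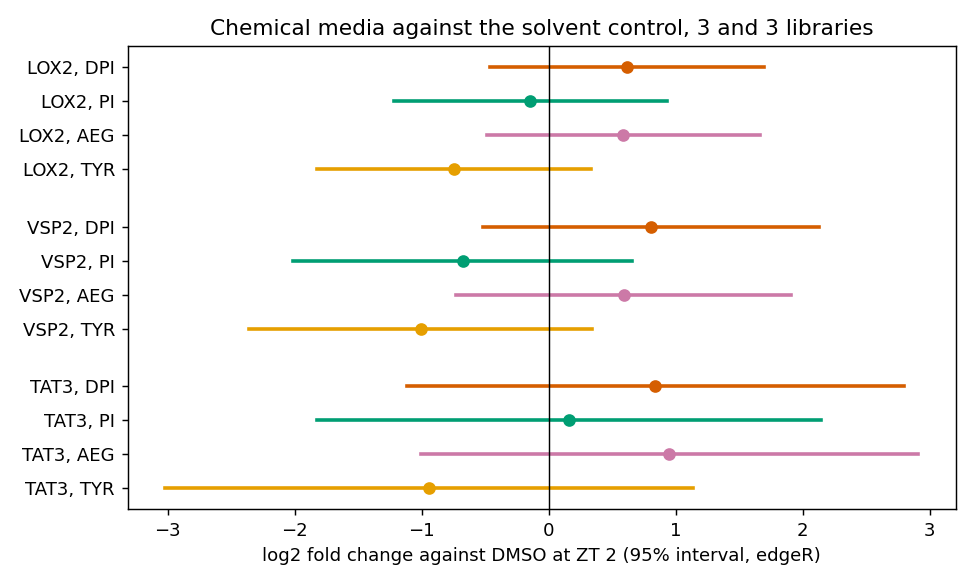
Log2 fold change of LOX2, VSP2 and TAT3 in each chemical medium against DMSO at ZT 2 (horizontal axis, edgeR), 3 libraries a group. Points are estimates and bars are 95% intervals. Each of the 12 bars crosses 0, and the bars of TAT3, such as -3.02 to 1.13 with TYR, are the widest.

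By mean CPM, LOX2 was ordered DPI (5525 ± 2376), AEG (5417 ± 2682), DMSO (3608 ± 3346), PI (3264 ± 376) and TYR (2150 ± 1042; SD, n = 3 each). VSP2 had the same order, from 409 ± 210 with DPI to 116 ± 57.7 with TYR. TAT3 was ordered AEG (132 ± 87.2), DPI (122 ± 82.4), PI (76.2 ± 41.3), DMSO (68.3 ± 83.7) and TYR (35.6 ± 54.8). Neighbours in each order had overlapping libraries, except that untreated seedlings, the lowest group, overlapped none. A single edgeR test of any difference among the 5 media gave an adjusted p of 0.973 for each gene. Its unadjusted p was 0.0477 for VSP2, 0.0945 for LOX2 and 0.356 for TAT3 (edgeR). The selection on spread limits this test as well. That test called 0% of genes, with 380 at an unadjusted p under 0.05, and DESeq2 called 4.

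These comparisons rest on libraries that differ in FSD1, and the levels within each kind are given for that reason. In the 5 ZT 2 libraries with high FSD1, LOX2 had 1058 CPM with DMSO, 3162 with TYR, 3400 with PI, 7241 with AEG and 7986 with DPI. These span the whole range of LOX2 at ZT 2. Without these 5 libraries, a setting chosen after seeing the data, LOX2 differed from DMSO by -0.12 (AEG), -0.18 (DPI), -0.61 (PI) and -1.57 (TYR) on the log2 scale. In that order VSP2 differed by -0.19, -0.11, -1.32 and -1.81, and TAT3 by 0.06, -0.05, -0.58 and -4.63. The sign against DMSO thus turned for each gene with DPI, for LOX2 and VSP2 with AEG, and for TAT3 with PI. None was called (edgeR, lowest adjusted p = 0.334, for TAT3 with TYR). The dawn values without them were 5.51 for LOX2 and 6.87 for VSP2. The part of the difference in FSD1 was not tested.

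The 15 ZT 2 libraries differed more among themselves in these genes than in most. Around the group means, the SD of log2 CPM over the ZT 2 libraries was 0.88 for LOX2, 1.19 for VSP2 and 1.87 for TAT3, against a median of 0.26 over genes. TAT3 ranked 8, VSP2 47 and LOX2 163 of 9006 genes in that spread. Over all 18 libraries the ranks were 11, 55 and 188, and they were 35, 163 and 396 with a prior count of 0.5 in place of 2. Between untreated libraries the SD was 0.31 for LOX2, against a median of 0.16 over genes. VSP2 and TAT3 had too few untreated counts for such a value, which the prior count would set. The highest ZT 2 library exceeded the lowest 7.55-fold for LOX2, 17.5-fold for VSP2 and 52.4-fold for TAT3. Differences between medium means held 34.8% of the variation of LOX2 between ZT 2 libraries, 32.6% for VSP2 and 34.7% for TAT3. The median was 25.4% over the 7486 genes with a mean log2 CPM of at least 3. Means of 3 libraries also differ without any effect of the medium, so these shares are not read as effects. Most of the variation thus lay between libraries of the same medium. This spread was among the values that had made the genes stand out.

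The 3 genes were high in the same libraries. DPI replicates 1 and 2, DMSO replicate 2 and AEG replicates 1 and 2 were the 5 highest for each gene. DMSO replicate 1 and TYR replicate 2 were among the 3 lowest for each. Pearson's r of log2 CPM over the 15 libraries was 0.97 for LOX2 with VSP2 (Spearman's rho 0.91), 0.89 for LOX2 with TAT3 (rho 0.89) and 0.83 for VSP2 with TAT3 (rho 0.80). With the mean of each medium subtracted, r was 0.98, 0.86 and 0.83 in the same order. Without the 2 libraries farthest from the median, r was 0.95, 0.81 and 0.79. These values describe libraries that share their depth, their preparation and the choice of genes. On the deposited FPKM scale the level of LOX2 was 5.56 to 13.6 times that of VSP2 at ZT 2, with a median of 7.62. Its ratio to TAT3 varied more, from 25.2 to 487 with a median of 36.3. Without TYR replicates 1 and 2, where TAT3 was lowest, it still ran from 25.2 to 140.

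**Figure D3:**
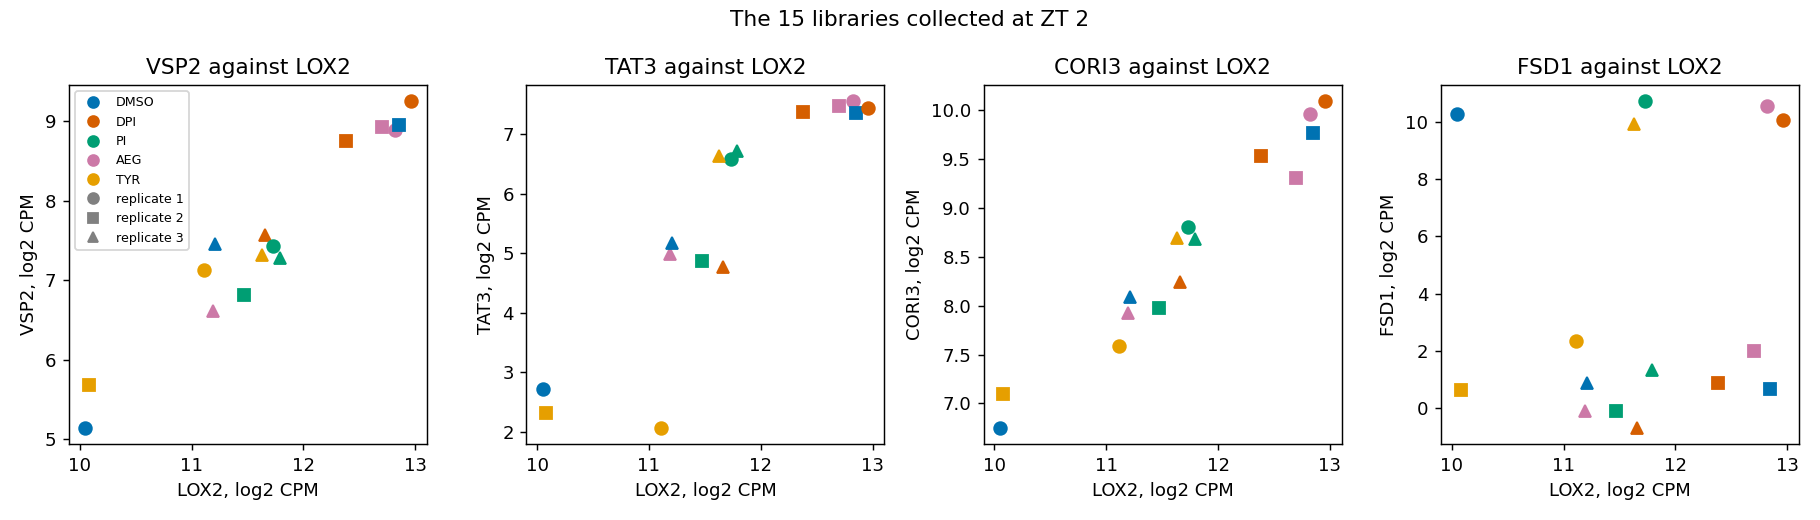
VSP2, TAT3, CORI3 and FSD1 against LOX2 in the 15 ZT 2 libraries, all as log2 CPM with a prior count of 2. Colours are media and symbols are replicates. VSP2, TAT3 and CORI3 follow LOX2 across media (r of 0.97, 0.89 and 0.98), whereas FSD1 splits into a high and a low set at any level of LOX2 (r of 0.12).

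The genes most like each of them were found among 7483 genes by Pearson's r over the same 15 libraries. For LOX2 they were VSP1 (0.98), CORI3 (0.98), AOC2 (0.97), APS3 (0.96) and CLH1 (0.96). CORI3 encodes a cystine lyase induced by the jasmonate mimic coronatine, AOC2 an allene oxide cyclase, APS3 an ATP sulfurylase and CLH1 a chlorophyllase. For VSP2 they were VSP1 (0.98), AOC2 (0.98), CLH1 (0.96), AT1G73325 (0.96), annotated as a Kunitz-type protease inhibitor, and CORI3 (0.95). For TAT3 they were CORI3 (0.93), SOT16 (0.92), OPR3 (0.92), AT4G18440 (0.91) and FAMT (0.91). SOT16 encodes a sulfotransferase of glucosinolate synthesis, OPR3 the reductase that acts on the jasmonate precursor OPDA, and FAMT a carboxyl methyltransferase. The names depend on the measure. By Spearman's rho, 2 of the 5 named for LOX2, 2 for VSP2 and 1 for TAT3 were again among the first 5, and with the medium means subtracted 5, 3 and 1 were. Over all genes compared, the median r was -0.02 with each of LOX2 and TAT3 and -0.03 with VSP2. The 99th percentile was 0.85, 0.80 and 0.85. An r of at least 0.9 was reached by 39 genes with LOX2, 47 with VSP2 and 8 with TAT3. Among 31 other jasmonate genes the median r was 0.87 with LOX2, 0.90 with VSP2 and 0.81 with TAT3. They come from lists written with earlier results of these data known, so these medians are a description. Not all of them followed LOX2. Its r was at least 0.9 with 11 of the 31, but -0.27 with JAM2, 0.18 with FAD7, 0.23 with JAM3 and 0.25 with MED25.

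Other jasmonate genes were taken from 4 lists written from general knowledge with earlier results of these data known. Of 77 listed genes 35 were in the table and 31 could be tested, while LOX3, LOX4, AOS and COI1 were not analysed here. At dawn 25 of the 31 rose and 2 fell (edgeR, adjusted p under 0.05), against 19.6% and 16.0% of all genes. Because of how the lists were written, these counts describe the listed genes and are not independent evidence about the pathway. Their median log2 fold change was 2.93, against 0.02 over all genes. It was also 2.93 with genes of at most 3 untreated counts set to the ratio or bound of their counts. Without DMSO replicate 2, 25 of the 31 were called, counting both directions, where the fit of all libraries called all but 4. Over all genes 2655 were called without that library. Without the 5 libraries high in FSD1, 26 rose and 2 fell.

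In synthesis, 6 of 8 tested genes rose and 1 fell. AOC2 averaged 13.2 ± 2.06 CPM untreated and 551 ± 463 CPM with DMSO (SD, n = 3), and rose by 5.38 in log2 terms (SE 0.59; edgeR, adjusted p = 8.01e-07). AOC3, another allene oxide cyclase, rose by 3.36 and OPR3 by 3.29 (edgeR, adjusted p = 0.00308 and 6.88e-05). JMT, which methylates jasmonic acid, rose by 2.74 (edgeR, adjusted p = 0.00233). FAD7, a plastid desaturase that makes linolenic acid, fell by 0.50 (SE 0.17; edgeR, adjusted p = 0.0294). That call was lost without any 1 untreated library (adjusted p = 0.0534 to 0.0855) or without DMSO replicate 3 (adjusted p = 0.171). In turnover, all 5 tested genes rose. CYP94B3, which hydroxylates the active conjugate, rose by 4.69 (SE 1.07; edgeR, adjusted p = 0.00184). JOX3, which hydroxylates jasmonic acid, had 4.41. ILL6, an amidohydrolase that splits the conjugate, had 3.15, and CYP94C1, which oxidises it further, had 2.70.

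In perception and signalling, 8 of 10 tested genes rose and 1 fell. MYC2 had 0, 0 and 12 counts in untreated libraries and 227 ± 161 CPM (SD, n = 3) with DMSO (edgeR, adjusted p = 6.44e-07). Its log2 fold change of 7.51 (SE 0.81) rests on a single untreated library. The repressor gene JAZ1 rose by 4.11 (SE 0.60; edgeR, adjusted p = 2.23e-05) and JAZ6 by 2.93 (SE 0.38; edgeR, adjusted p = 5.79e-06). JAZ13 had 0 counts in every untreated library and 40 with DMSO, at least 13.7-fold higher against 3 counts over the untreated group (edgeR, adjusted p = 0.0147). That call was lost without DMSO replicate 2 (adjusted p = 0.146). MED25, a Mediator subunit that works with MYC2, fell by 0.65 (SE 0.16; edgeR, adjusted p = 0.00308).

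Among response genes, 6 of 8 tested rose and none fell. VSP1, the neighbour of VSP2, had 5, 0 and 10 counts in untreated libraries and 24, 236 and 99 with DMSO, a rise of 4.60 (SE 0.90; edgeR, adjusted p = 0.000504). It was highest and lowest in the same ZT 2 libraries as VSP2, and the FPKM ratio of VSP2 to VSP1 lay between 3.90 and 7.04 at ZT 2. In untreated libraries 1 and 3 that ratio was 1.82 and 0.899, from at most 11 counts of either gene, and VSP1 had no count in replicate 2. CORI3 averaged 9.17 ± 0.349 and 415.5 ± 400.2 CPM (SD, n = 3), and rose by 5.50 (SE 0.76; edgeR, adjusted p = 1.19e-05). RNS1, a ribonuclease gene known from wounding, went from 1 count to 300, a ratio of 308 (exact 95% interval 54.9 to 12220; edgeR, adjusted p = 7.58e-06). JAL23, a jacalin-related lectin gene, went from 2 counts to 186, a ratio of 95.6 (26.1 to 795; edgeR, adjusted p = 3.87e-05). RNS1 followed the 3 genes less closely between ZT 2 libraries, with an r of 0.51 with LOX2 and 0.52 with each of VSP2 and TAT3. Its place in this list is from general knowledge, and whether its rise depends on jasmonate was not tested. Without DMSO replicate 2, the log2 fold changes were 4.48 for AOC2, 4.37 for CORI3, 3.61 for VSP1 and 2.46 for OPR3. They were 2.66 for AOC3, 1.98 for JMT, 3.61 for CYP94B3, 3.55 for JOX3, 2.44 for ILL6, 3.47 for JAZ1 and 6.80 for MYC2. Each of these 11 genes was still called (edgeR, adjusted p at most 0.0316, for JOX3).

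**Figure D4:**
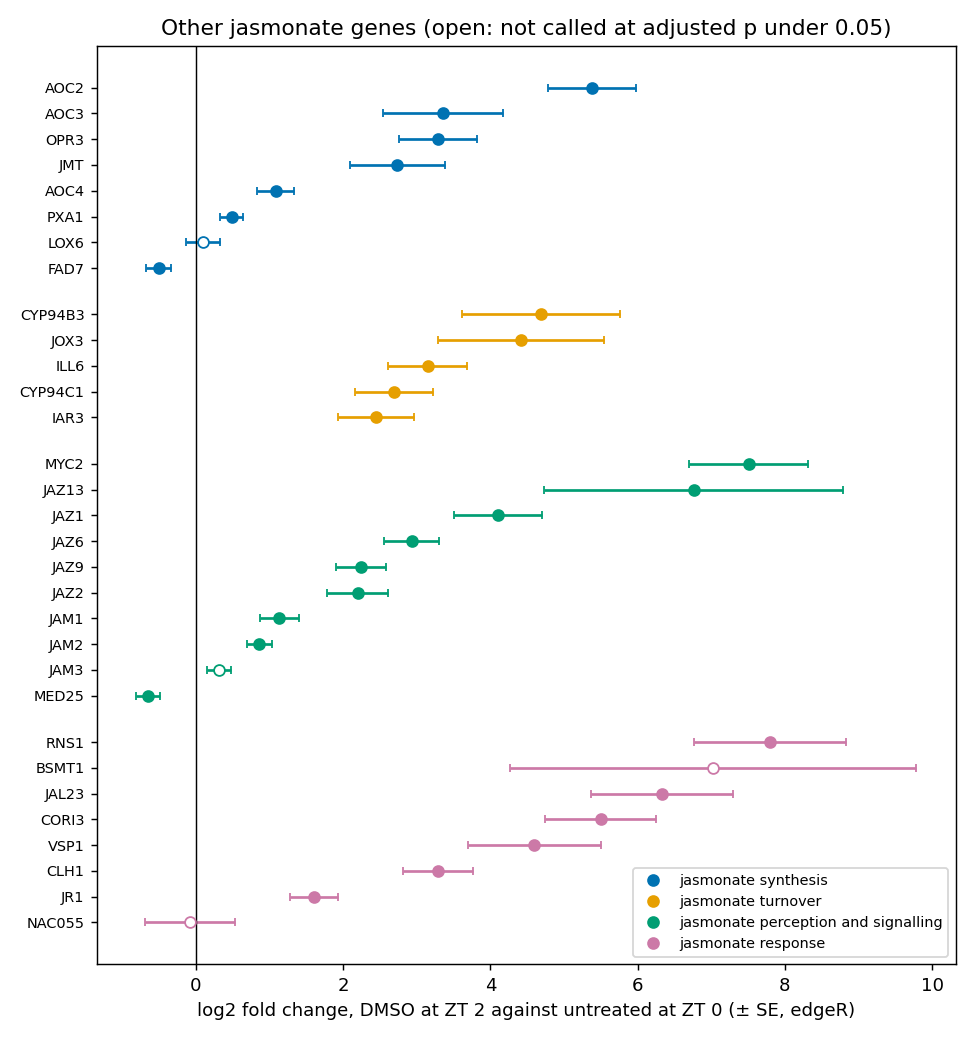
Log2 fold change of the 31 other jasmonate genes in DMSO at ZT 2 against untreated at ZT 0 (horizontal axis, edgeR), ordered within the 4 lists. Points are estimates, bars are ± SE, and open points were not called. The values of JAZ13, RNS1, BSMT1 and JAL23 depend on the prior count, since at most 2 untreated counts stand behind each. Filled points lie right of 0 for 25 genes and left of 0 for FAD7 and MED25.

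Against untreated seedlings, 27 of the 31 rose and 2 fell with DPI, 26 and 1 with AEG, 24 and 1 with PI, and 24 and 2 with TYR. Over all genes 21.7% were called higher and 18.4% lower with DPI, and 21.2% and 18.8% with AEG. The shares were 20.2% and 17.8% with PI, and 20.1% and 17.3% with TYR. These comparisons share the untreated libraries with that of DMSO. Against DMSO, 0 of the 31 were called with any chemical (edgeR), beside 0% of all genes. Their median log2 fold change against DMSO was 0.51 with DPI, 0.23 with AEG, -0.30 with PI and -0.34 with TYR, against medians between -0.00098 and 0.0024 over all genes.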

How the data were processed

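RNA-seq was made from whole Arabidopsis seedlings, 3 libraries in each of 6 groups. Per the labels' protocols, poly(A) RNA was prepared with a NEBNext Ultra kit and read as 150-base pairs on an Illumina HiSeq. The submitters' processing notes name HISAT2 2.2.1, RSEM 1.2.22 and TAIR10, and the annotation is not given in the sources used here. The authors deposited an estimated count, an FPKM and a TPM per gene and library, per the file headers. TPM was not used. The table named 11437 distinct genes of 27550 protein-coding genes in RefSeq, so totals cover the listed genes only. On 460 lines the locus and the gene identifier differed, and the identifier was used. Of the estimated counts 3.59% were not whole, and counts were rounded.

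Counts were tested with edgeR 4.0.16 in R 4.3.3 (quasi-likelihood, TMM factors 0.942 to 1.07, filterByExpr, 9006 genes) in 1 fit over 18 libraries with 12 residual degrees of freedom and Benjamini-Hochberg adjustment at 0.05. CPM used TMM factors, and log2 CPM a prior count of 2. Ratios against at most 3 counts were given with exact binomial intervals, which cover counting error only, as do the floors of 3 counts. The labels do not say that replicates came from separate plants or cultures, so p-values measure the spread between these libraries, which may be technical. The edgeR test of the dawn comparison was tried on simulated counts. The members and lists were chosen with earlier results of these data known.

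Named genes were the 3 members, up to 4 largest increases and decreases among called genes of each jasmonate list at dawn, a short list of pathway genes where measured, FSD1, and the 5 genes with the highest r for each member among those with a mean log2 CPM of at least 3. Alternatives were DESeq2 1.42.0, other scalings, filters and thresholds, a replicate block, other measures of likeness, and leaving out each library. A fit without the ZT 2 libraries high in FSD1 was added after seeing the data.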

Additional observations from a re-analysis of the deposited data

How the results depend on the processing

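Alternatives gave 1099 values, of which 1045 had the direction and the call of the reported value or stayed within its error. No difference of LOX2, VSP2 or TAT3 from DMSO was called under any alternative, and leaving out 1 library gave log2 fold changes with PI of -0.58 to 0.92 for LOX2, -1.19 to 0.47 for VSP2 and -0.38 to 1.86 for TAT3, and with TYR of -1.18 to 0.33, -1.52 to 0.15 and -4.09 to 0.76. The highest of each came without DMSO replicate 2. Without the 5 ZT 2 libraries high in FSD1, values with DPI were -0.18, -0.11 and -0.047 for LOX2, VSP2 and TAT3, those with AEG were -0.12 and -0.19 for LOX2 and VSP2, and TAT3 with PI was -0.58. A filter of at least 10 counts in every library leaves out VSP2, TAT3 and other genes near 0 at ZT 0. With it, 17 jasmonate genes were called at dawn. Against untreated, 18 were called with DPI, 16 with AEG and 16 with TYR. The number of listed genes left by this filter and the share of all genes called under it are not given here. These counts are therefore not set against a background. With a log2 fold change of at least 1, 1318 genes were called at dawn, and against untreated 1568 for AEG, 1538 for DPI, 1431 for PI and 1405 for TYR. DESeq2 called 1 gene for AEG against DMSO and 4 among the 5 media, and the cause was not tested. Same-numbered libraries did not deviate together in every pair of any comparison (mean correlation -0.229 for TYR and DMSO, -0.0578 to 0.0497 elsewhere), so the numbers were not taken as pairs. With the replicate number as a block, 27 jasmonate genes were called at dawn, and the share of all genes called is not given here. In that fit 0 genes were called for each chemical against DMSO, and LOX2 had an adjusted p of 0.983 among the 5 media (edgeR). The block also turned FSD1 at dawn from not called (adjusted p = 0.548) to called (-8.23, adjusted p = 0.0144). Depth limits TAT3, VSP1, RNS1, JAL23, JAZ13 and BSMT1 at ZT 0, where counts were near the floor.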

Other observations

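Salicylate is a hormone often set against jasmonate in plant defence. Of 8 salicylate genes listed from general knowledge 2 were in the table, and both fell at dawn, where 16.0% of all genes were called lower. PAD4, a lipase-like regulator of salicylate signalling, fell by 0.59 in log2 terms (SE 0.22; edgeR, adjusted p = 0.0402). Its partner EDS1 fell by 0.70 (SE 0.19; edgeR, adjusted p = 0.00773). Against untreated, both were called lower with DPI, AEG and TYR, but with PI only PAD4 was (edgeR, adjusted p = 0.0644 for EDS1). The calls of PAD4 and EDS1 were not followed through the alternatives, such as leaving out each library. Between ZT 2 libraries these 2 genes did not follow LOX2, with an r over 15 libraries of -0.21 for PAD4 and -0.05 for EDS1.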
